A study of Mus with 8 samples.

Results

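Uninduced P cells, in which Prep1 was knocked down, were compared with C cells that had been exposed to the adipogenic hormones, to ask which parts of the hormone response P cells without hormones had reached, where they stood beyond it, and where they fell short. The comparison was formed by the libraries of P cells at day −2 and those of C cells at day 1, which are 4 of the 8 libraries of the series, and 13339 of the 24013 genes in the count table had enough counts to be tested. Both lines derive from 3T3-L1, a mouse preadipocyte line that turns into fat cells in culture. The P cells carried a lentiviral shRNA against Prep1 and the C cells a scrambled shRNA, and both had been selected in puromycin. At day −2 the P cells had received no inducer. The C cells at day 1 had spent a day in medium with insulin (1 μg/ml), the phosphodiesterase blocker IBMX (0.5 mM), dexamethasone (1 μM) and 10% FBS. The remaining libraries, from uninduced C cells and induced P cells, served as reference points, and each condition had 2 biological replicas. Knockdown, hormones, serum (BCS in growth medium, FBS in induction medium) and time in culture all differ between the groups compared, so their shares in a difference cannot be told apart, and the P cells stand for 1 shRNA. Bulk RNA also cannot tell fewer cells of a kind from less RNA per cell.

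Prep1, listed as Pknox1, is a homeodomain factor of the TALE class that binds DNA together with other proteins of that class. Of the inducers, dexamethasone activates the glucocorticoid receptor, IBMX blocks phosphodiesterases and so raises cAMP, and insulin acts through its own and the IGF1 receptor. In 3T3-L1 cells these signals bring up C/EBPβ and C/EBPδ early, and C/EBPα and PPARγ later, and the last pair switches on the lipid and hormone genes of the fat cell.

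Pknox1 (NCBI gene 18771) had 17.3 and 18.3 CPM (counts scaled to library size by TMM) in replicas 1 and 2 of P cells at day −2, against 38.1 and 36.5 in induced C cells. The uninduced C replicas had 28.1 and 26.5, and the induced P replicas 23.6 and 23.8. The P libraries of both days thus lay below the C libraries of both days. P cells at day −2 over C cells at day 1 gave a log2 ratio of −1.07 (standard error, SE, 0.14) and an adjusted p of 0.00283. On the same day, P cells over C cells at day −2 gave −0.62 (SE 0.14, adjusted p = 0.0558), which is short of a 2-fold difference. Adjusted p-values here come from edgeR's quasi-likelihood test of all 4 conditions with Benjamini-Hochberg adjustment over all genes tested. With 2 libraries a side, the smallest p an exact permutation test allows is 0.333.

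The libraries held between 20428816 and 27614353 counts, and 3 counts in a library corresponded to between 0.107 and 0.160 CPM, which allows for counting error and nothing else. The uninduced P replicas lay apart. Their log2 differences spread with an SD of 0.795 over 5600 abundant genes, where those of the induced C replicas spread with 0.261. Values of both replicas are therefore printed for many of the genes named, while others are given by their log2 ratio alone. Calls found to be lost without one of these replicas are given as such.

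A gene was called when its ratio passed 2 or 0.5 at an adjusted p under 0.1. It was counted as within 2-fold when it was not called and the 95% interval of its log2 ratio lay between −1 and 1, and as undetermined otherwise. By this rule 2744 genes (20.6% of those tested) differed between uninduced P cells and induced C cells, of which 1477 (11.1%) were higher in P cells and 1267 (9.5%) higher in C cells. A further 4610 genes (34.6%) were within 2-fold, and 5985 (44.9%) were undetermined. Over 4-fold there were 577 genes on the P side and 425 on the C side, and over 16-fold 108 and 107. With library totals in place of TMM the counts were 1307 and 1344, so which side holds more genes depends on the scaling. Without replica 2 of P cells at day −2, 4825 genes were called, 2144 higher in P cells and 2681 higher in C cells, and without replica 1 of C cells at day 1 there were 1833, 898 and 935.

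**Figure D1:**
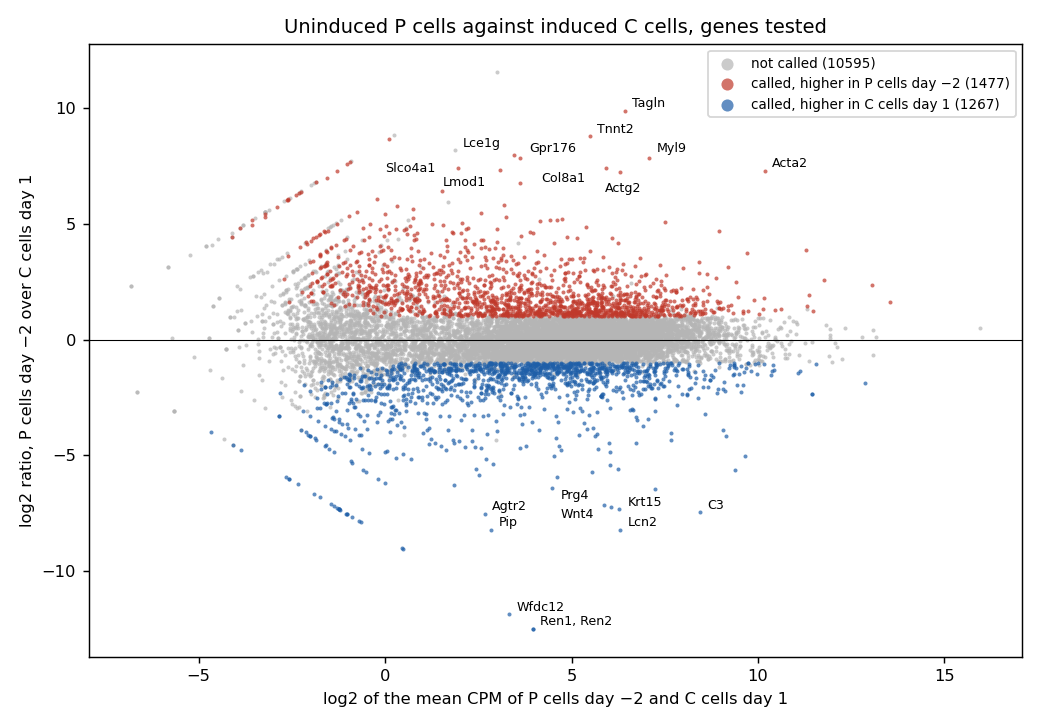
Each point is a gene tested, with the log2 of its mean CPM over both groups on the x axis and the log2 ratio of P cells at day −2 over C cells at day 1 on the y axis, red where called higher in P cells (1477) and blue where called higher in C cells (1267). The named genes at the top are led by Tagln at 9.88, and those at the bottom by Ren1 and Ren2, for which P cells had no counts. Genes at 0 in all 4 libraries are not drawn.

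The genes that stood highest in P cells were led by smooth muscle genes of the actin cytoskeleton. Tagln (NCBI gene 21345), which encodes the actin-binding protein transgelin, had 156 and 191 CPM in the P replicas and 0.237 and 0.119 in the C replicas. C cells before induction had 18.8 and 15.9, so the P level lay above the uninduced C level and the hormone-treated level below it. The log2 ratio was 9.88 (SE 0.36, adjusted p = 5.46e-05). Acta2 (NCBI gene 11475), the smooth muscle α-actin gene, had 2053 and 2599 CPM against 14.9 and 14.5, a log2 ratio of 7.31 (SE 0.21). Myl9, a myosin light chain, had 207 and 334 against 0.908 and 1.39, and Actg2, the smooth muscle γ-actin gene, had 139.6 and 171 against 1.3 and 0.717. The rule that named these genes required replicas without overlap. That held for 2742 of the 2744 called genes and 7575 of the 13339 tested. Tnnt2, the cardiac troponin T gene, had 127 and 52.7 CPM in P cells and 0.276 and 0.119 in induced C cells, but C cells at day −2 had 93.3 and 76.0, a level between the P replicas. Slco4a1, a transporter gene, likewise had 7.56 and 7.74 in P cells, 0 and 0.0796 in induced C cells, and 14.9 and 15.7 in uninduced C cells. The remaining genes of this rank were Lmod1, a leiomodin, with 21.8 and 12.1 CPM against 0.118 and 0.0796, Col8a1, a collagen, with 164 and 78.3 against 0.513 and 0.876, Gpr176, a receptor, with 18.2 and 30.5 against 0.158 and 0.0398, and Lce1g, with 34.8 and 8.70 against 0.0395 and 0.119.

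The genes that stood highest in induced C cells included genes of secreted proteins such as renin, C3 and Lcn2. Ren1 and Ren2 encode renin and had identical counts in every library, so they are treated as a single signal that cannot be assigned to either. They had 32.1 and 29.9 CPM in induced C cells and no count in either P library, which makes them at least 233-fold lower there against a floor of 3 counts per library. Wfdc12, a protease inhibitor gene, had 24.1 and 16 in C cells and no count in P cells, at least 150.1-fold lower by the same floor. The complement component C3 (NCBI gene 12266) had 635 and 753 CPM in induced C cells and 3.51 and 4.21 in P cells, a log2 ratio of −7.48 (SE 0.21). The P level was under that of C cells at day −2, 6.73 and 6.11. Lcn2, the lipocalin of the acute phase, had 179 and 136 CPM against 0.320 and 0.678. Wnt4, a Wnt ligand, had 133 and 131 against 1.07 and 0.713, and Prg4, a lubricating proteoglycan, had 135 and 96.3 against 0.479 and 1.07. Lcn2, Wnt4 and Prg4 were each under 3 CPM in P cells and in uninduced C cells. Krt15, a keratin, had 125 and 182 against 1.22 and 0.713. Pip and Agtr2, the type 2 angiotensin receptor, reached 19.3 and 9.44 CPM and 15.7 and 9.71 CPM in induced C cells, with at most 3 counts in any P library at day −2. In P cells at day 1 they stood at 112 and 121 and at 93.5 and 86.7 CPM, which lay above the induced C cells.

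Lists of genes for each arm of the hormone response were written by hand, and their counts stand beside the shares of all genes tested, 11.1% higher in P cells and 9.5% higher in C cells. For the glucocorticoid response, 16 of 24 genes tested (66.7%) were higher in induced C cells, none was higher in P cells, 3 were within 2-fold and 5 undetermined. Without P replica 2, 1 gene was higher in P cells and 17 in C cells. The median log2 ratio was −2.02, against 0.00999 over all genes. Tsc22d3 (NCBI gene 14605), the glucocorticoid-induced leucine zipper, had 23.2 and 14.4 CPM in P cells and 197 and 190.3 in induced C cells, with 10.6 and 12.8 in uninduced C cells. The log2 ratio of Tsc22d3 came to −3.37 (SE 0.26, adjusted p = 0.000363). Fkbp5, a co-chaperone of the receptor, had 142 and 84.2 against 427 and 536, a log2 ratio of −2.09 (SE 0.27). Both genes stood well short of the induced level in each P replica. Among members with a mean of at least 50 counts, the largest ratios were those of Lcn2, Saa3 (−5.87), Zbtb16 (−4.61) and Orm1 (−4.60). Saa3 is an acute-phase gene and Zbtb16 a zinc finger factor. Orm1 had 0 and 11 counts in the P replicas and 145 and 132 in the induced C replicas. The log2 ratio of Mt2, a metallothionein, was −4.37. Mt2 had 20.2 and 17.2 CPM in P cells, below the 31.7 and 35.5 of C cells at day −2, and 431 and 339.9 in induced C cells. The receptor gene itself, Nr3c1, had 51.8 and 90.3 CPM in P cells and 77.2 and 67.9 in induced C cells, a log2 ratio of −0.03 with an interval from −0.63 to 0.57.

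The cAMP arm was also short of the induced level, but several of its immediate early genes had moved part of the way. Of 23 genes tested, 15 (65.2%) were higher in induced C cells, 1 was higher in P cells, 3 were within 2-fold and 4 undetermined, with a median log2 ratio of −1.77. Against C cells at day −2, P cells had 7 of these genes called higher and 2 lower (over all genes 4.83% and 2.15%), while induction of C cells had 17 higher and 2 lower (10.7% and 9.68%). Fos (NCBI gene 14281), the AP-1 subunit, had 317 and 78.3 CPM in P cells, 771 and 952 in induced C cells and 25.7 and 38 in uninduced C cells. Every P value lay between the uninduced and the induced C values, and P replica 1 was far above replica 2. The log2 ratio was −2.13 (SE 0.59, adjusted p = 0.0385). Nr4a1, an orphan nuclear receptor, had 135 and 93.3 CPM against 245 and 286, from 39.7 and 37.2 in uninduced C cells. Egr1, a zinc finger factor of the early response, had 150.2 and 112 against 291 and 276, from 34.7 and 39.3. Rgs2, Gem and Nfil3 were not called in P cells against uninduced C cells. Rgs2, a regulator of G protein signalling, had 13.9 and 32.6 CPM in P cells, 26.8 and 35.0 in uninduced C cells and 405 and 357 in induced C cells, a log2 ratio of −4.03 (SE 0.41, adjusted p = 0.00103). Gem, a small GTPase, had 22.1 and 18.6 against 169 and 170.2, and Nfil3, a bZIP factor, had 34.3 and 52.2 against 266 and 252. The phosphodiesterase gene Pde4b was within 2-fold, with 57.7 and 74.5 against 77.5 and 80.2 CPM from 28.9 and 31.3. Ptgs2, the inducible cyclooxygenase, was the member higher in P cells, with 48.0 and 80.3 CPM against 27.3 and 22.4, and it had 79.4 and 85.0 in uninduced C cells.

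The insulin arm ran the other way for the sterol genes. Of 23 genes tested under insulin and SREBP, 9 (39.1%) were higher in P cells, 2 were higher in induced C cells, 5 were within 2-fold and 7 undetermined. The median log2 ratio was 0.94, or 0.79 with Slc2a4, which had no count in induced C cells, set at its bound. The genes higher in P cells included genes of cholesterol synthesis and its control, Fdps (2.78), Insig1 (1.96), Sqle (1.88), Lss (1.83), Idi1 (1.79) and Srebf2 (1.51), with the fatty acid elongase Elovl6 (1.91) and the insulin receptor substrate Irs1 (2.28). Fdps, the farnesyl diphosphate synthase gene, had 380.0 and 270.3 CPM in P cells, 45.7 and 49.1 in induced C cells and 224 and 214 in uninduced C cells. The induced C cells lay below every library of day −2. Irs1 had 81.6 and 63.6 against 14.6 and 15.3, from 41.8 and 39.4. Against C cells at day −2, none of the list was called in P cells in either direction, and 9 were called lower and 2 higher by induction of C cells. The shares over all genes were 4.83% higher and 2.15% lower in P cells, and 9.68% lower and 10.7% higher by induction. Scd1, the stearoyl-CoA desaturase, and Irs2 were the pair higher in induced C cells. Scd1 had 61.7 and 77.1 CPM in P cells against 208 and 187. Srebf1 was undetermined, with 105 and 60.0 against 102 and 124, and the glucose transporter gene Slc2a4 had 0 and 2 counts in the P replicas and 0 in both C replicas. Hmgcs1 was listed at 0 in every library.

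**Figure D2:**
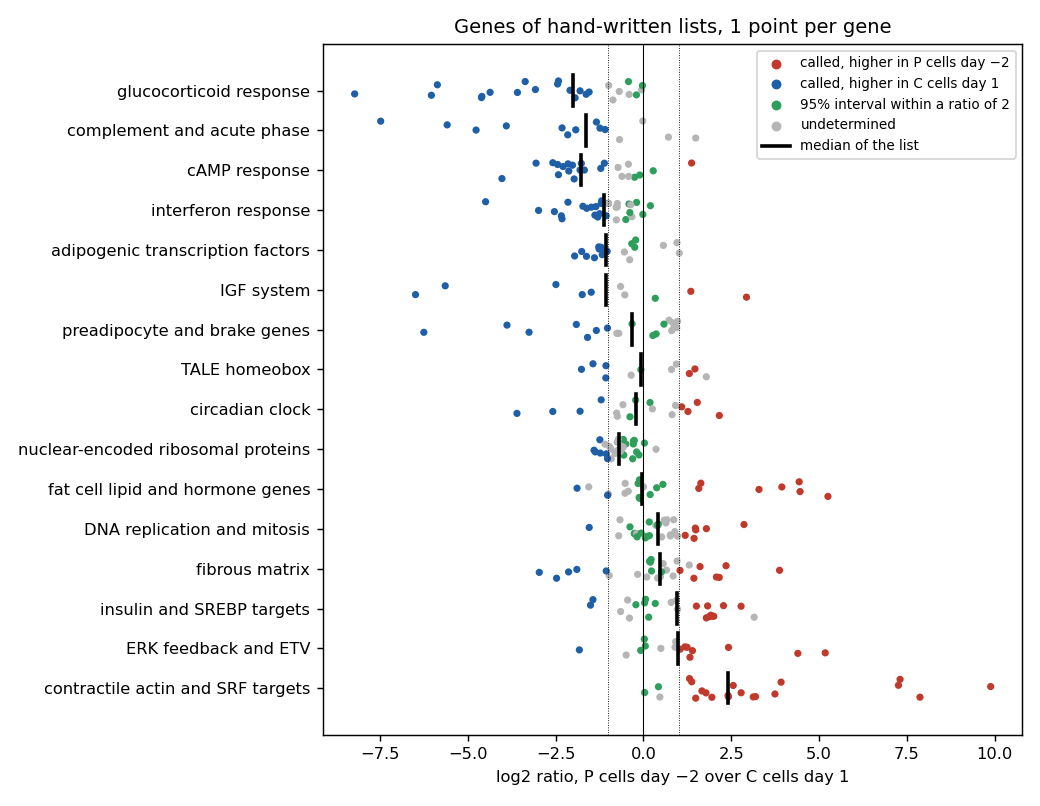
Each point is a gene of a hand-written list, placed by its log2 ratio of P cells at day −2 over C cells at day 1 (x axis), and the black bars are list medians, from −2.02 for the glucocorticoid response to 2.42 for the contractile genes. Red and blue points were called higher in P and in C cells, green points were within 2-fold, and dotted lines mark ratios of 2.

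Of the adipogenic transcription factors, the early C/EBP genes Cebpb and Cebpd were not called apart, and the later Cebpa and Pparg were below the induced level in P cells. Cebpd (NCBI gene 12609), which encodes C/EBPδ, had 64.5 and 32.9 CPM in P cells and 66.5 and 61.2 in induced C cells, from 6.65 and 9.04 in uninduced C cells. P replica 1 lay between the induced C replicas and replica 2 below both, and the log2 ratio was −0.39 with an interval from −1.14 to 0.35 and an adjusted p of 0.394. It was −0.97 without P replica 1 and 0.01 without replica 2. Cebpb had 259.5 and 169 against 317 and 307, from 94.0 and 109, a log2 ratio of −0.54 with an interval from −1.08 to −0.0035 and an adjusted p of 0.125. Cebpd and Cebpb were thus not called against induced C cells, and their intervals do not show equal levels either. Against uninduced C cells both were called higher in P cells, by log2 ratios of 2.63 and 1.08. Cebpa (NCBI gene 12606) had 7.51 and 3.39 CPM against 16.4 and 16.9, from 0.757 and 0.842 in uninduced C cells. It had risen with knockdown alone, by a log2 ratio of 2.75, and stood below the induced level by a log2 ratio of −1.62 (SE 0.35, adjusted p = 0.0166), which was −2.31 without P replica 1 and −1.16 without replica 2. Pparg had 12.1 and 21.2 CPM in P cells, 41.2 and 34.2 in induced C cells and 19.2 and 19.5 in uninduced C cells. Its log2 ratio was −1.17 (SE 0.26, adjusted p = 0.0192), and without P replica 1 it was −0.84, no longer past the ratio threshold, while without replica 1 of the induced C cells the adjusted p was 0.117.

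Over the whole list, 10 of 18 factors tested (55.6%) were higher in induced C cells, none was higher in P cells, 3 were within 2-fold and 5 undetermined. Against C cells at day −2, 6 of the 18 were called higher in P cells and 8 by induction of C cells, with none lower in either. Over all genes tested, 4.83% were called higher in P cells and 10.7% by induction. Ets2 had the largest ratio, with 44.4 and 37.2 CPM against 153 and 165. The Krüppel-like factors Klf4 and Klf5 had log2 ratios of −1.76 and −1.40, and both P replicas were below those of uninduced C cells. Egr2 had 16.8 and 8.88 CPM against 30.3 and 24.9, from 3.87 and 4.70. Its log2 ratio of −1.11 shrank to −0.73 without P replica 2, and the adjusted p was 0.163 without replica 1 of the induced C cells. Without P replica 2, 2 factors were higher in P cells and 7 in induced C cells. Without replica 1 of the induced C cells 6 factors were called, and 4 when the libraries of the comparison were fitted alone.

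Several fat cell genes were higher in uninduced P cells than in C cells a day after induction. Fabp4 (NCBI gene 11770), the fatty acid binding protein of fat cells, had 28.4 and 19.8 CPM in P cells, 0.789 and 1.39 in induced C cells and 2.07 and 2.35 in uninduced C cells. The P replicas stood above all C libraries. C cells were lower at day 1 than at day −2, by a call close to both thresholds (log2 ratio −1.01, SE 0.32, adjusted p = 0.0602). The log2 ratio of P cells at day −2 over induced C cells was 4.46 (SE 0.32, adjusted p = 0.000326). Fabp5, its relative, had 162 and 138 CPM against 15.6 and 15.1, from 109 and 107, so here the gap came mostly from the fall in C cells. Me1, the malic enzyme gene, had 62.9 and 78.2 against 23.1 and 24.3, from 78.3 and 79.4. Plin1, the lipid droplet perilipin, and Cd36, the fatty acid transporter, had too few counts for the naming rule and were picked out after their values were seen. Plin1 had 4.85 and 1.68 CPM in P cells and 0.118 and 0.0398 in induced C cells, and Cd36 had 1.12 and 4.99 against 0.237 and 0.159, with log2 ratios of 5.25 and 3.94. In uninduced C cells Plin1 had 0.0398 and 0.0886 and Cd36 0.159 and 0.222 CPM.

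The list as a whole was split. Of 22 lipid and hormone genes tested, 7 (31.8%) were higher in P cells, 2 were higher in induced C cells, 7 were within 2-fold and 6 undetermined, with a median log2 ratio of −0.06. Lipe, the hormone-sensitive lipase, had 8.09 and 5.85 CPM against 24.6 and 27.0, a log2 ratio of −1.89, and Fitm2, a lipid droplet protein, had a log2 ratio of −1.02. The hormone genes were at the limit of detection in both groups. Adipoq, the adiponectin gene, had 5 and 7 counts in the P replicas and 3 and 1 in the C replicas. Its call (log2 ratio 1.63, adjusted p = 0.0847) was lost when any of the libraries was left out, with adjusted p-values up to 0.394. Cfd, the adipsin gene, had 3 and 2 counts in P cells and none in C cells, too few for a fold. Counting only genes with at least 10 counts in each of the 4 libraries left 3 called higher in P cells. Lpl, the lipoprotein lipase, was within 2-fold with 183 and 200.1 CPM against 127 and 133, from 58.6 and 57.7. In P cells at day 1 it had 417 and 375, Adipoq 19.4 and 16.1, and Fabp4 67.4 and 74.3 CPM.

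Genes held to mark or keep the preadipocyte were called higher in induced C cells with all libraries in the fit, but on both sides without P replica 2. Of 19 tested, 7 (36.8%) were higher in C cells, none in P cells, 4 were within 2-fold and 8 undetermined. Without P replica 2, 4 were higher in P cells and 6 in C cells, and without P replica 1 the counts were 0 and 7. Dlk1, which encodes Pref-1, had 857 and 645 CPM in P cells, 1907 and 1899 in induced C cells and 861 and 974 in uninduced C cells, a log2 ratio of −1.34 (SE 0.18, adjusted p = 0.00302). P cells at day −2 were thus near the uninduced C cells, and C cells rose with induction. Foxo1, a forkhead factor that insulin restrains, had 9.32 and 8.42 against 33.8 and 32.9. Wnt6 had 2.40 and 0.285 against 11.0 and 13.5, and Klf2 had 15.2 and 6.99 against 39.9 and 26.9. The adjusted p of Klf2 was 0.126 without replica 1 of the induced C cells, and that of Wnt6 was 0.102 without replica 2.

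**Figure D3:**
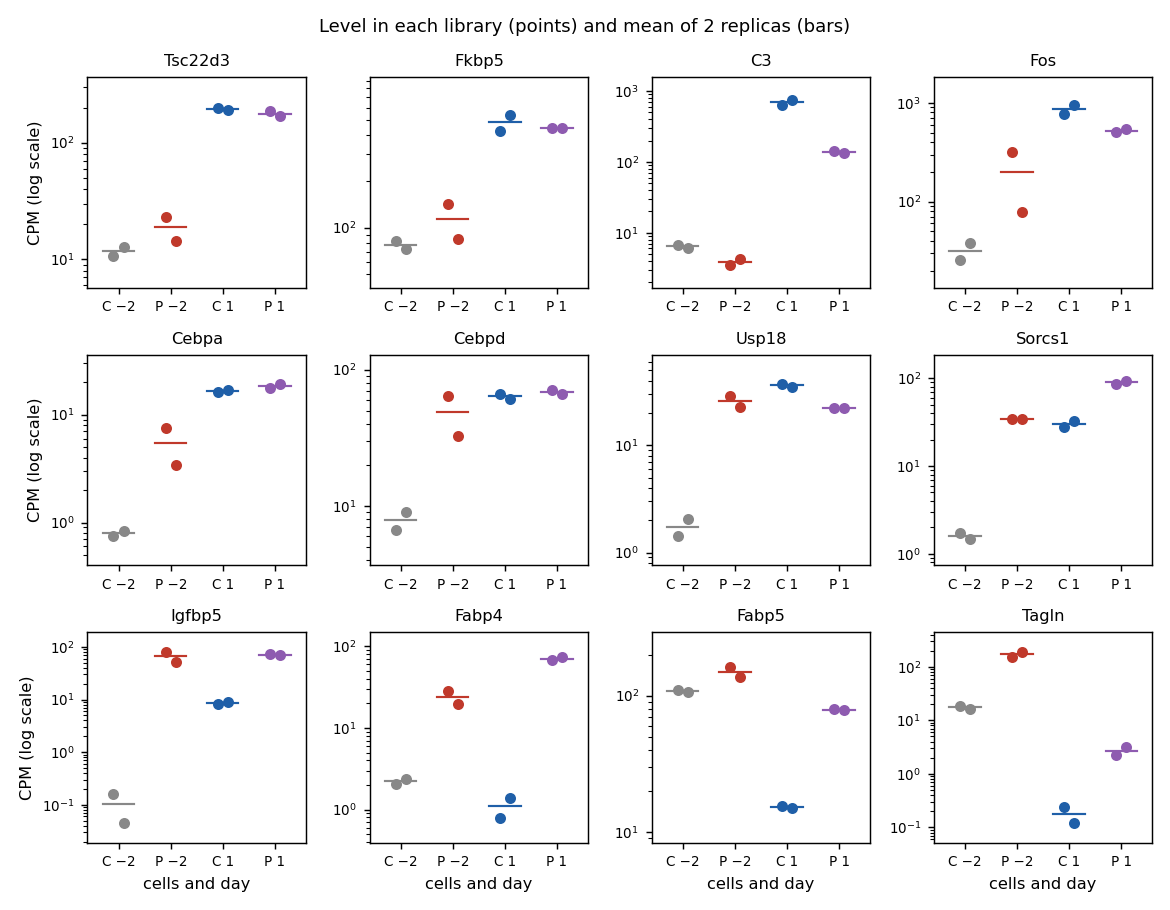
CPM on a log axis for 12 genes in each library (points, 2 replicas a condition) with the mean of the replicas (bars), in the order uninduced C, uninduced P, induced C and induced P cells. Tsc22d3, Fkbp5 and C3 in P cells at day −2 stand nearer the uninduced than the induced C level, Usp18 and Sorcs1 near the induced C level, and Igfbp5, Fabp4 and Tagln above both.

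Most interferon response genes were raised in uninduced P cells, and many of the list stood higher still in induced C cells. Of 30 genes tested, 17 (56.7%) were higher in induced C cells, none was higher in P cells, 6 were within 2-fold and 7 undetermined, and the median log2 ratio was −1.13. Against C cells at day −2, 22 of the 30 were called higher in P cells and 27 by induction of C cells, contrasts that share the uninduced C libraries. Over all genes tested, 4.83% were called higher in P cells and 10.7% by induction. Ifi44 had 3.67 and 7.10 CPM in P cells and 132 and 114 in induced C cells, from 0.996 and 0.532, a log2 ratio of −4.49 (SE 0.37, adjusted p = 0.000509). Oas2, an oligoadenylate synthetase, had 4.15 and 4.35 against 32.6 and 34.9, and the antiviral GTPase Mx1 had 3.99 and 3.00 against 18.4 and 22.1. Psmb9, an immunoproteasome subunit, had 2.34 and 2.10 CPM against 11.2 and 11.2, from 0.199 and 0.0886. Usp18 and Gbp2 were within 2-fold. Usp18, which removes ISG15 from proteins, had 28.6 and 22.5 CPM against 37.1 and 35.2, from 1.43 and 2.04. With only the 4 libraries of the comparison in the fit, 11 of the list were called.

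Complement and acute-phase genes were short of the induced level. Of 14 tested, 10 (71.4%) were higher in induced C cells and none in P cells, none was within 2-fold and 4 were undetermined, with a median log2 ratio of −1.63. Lbp, which binds lipopolysaccharide, had 0.213 and 0.214 against 9.51 and 11.5, and C4b had a log2 ratio of −3.91. Hp, haptoglobin, had covered part of the distance, with 3.67 and 3.21 CPM against 16.7 and 17.6, from 0.199 and 0.133.

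The contractile genes were the list most shifted to P cells. Of 21 genes tested, 18 (85.7%) were higher in P cells, none was higher in induced C cells, 2 were within 2-fold and 1 was undetermined, with a median log2 ratio of 2.42. The count was 18 without either P replica, and the median was 2.06 without replica 1 and 2.81 without replica 2. Against uninduced C cells, knockdown had raised 8 of them and lowered none, and induction of C cells had lowered 12 and raised none. Over all genes tested, knockdown had raised 4.83% and lowered 2.15%, and induction had lowered 9.68% and raised 10.7%. Tpm1, a tropomyosin, had 1953 and 1131 CPM in P cells, 105 and 125 in induced C cells and 765 and 676 in uninduced C cells. Thus the distance between the groups had a part from each side. Ankrd1 (3.92), Fhl1 (3.19), Cnn2 (3.13) and Ccn2 (2.78) were also among those called, and Srf, the factor itself, was not (0.47). Of 4 skeletal muscle markers tested, Des, Myh3 and Acta1 were higher in P cells, from a summed level of 10.3 and 6.60 CPM in P cells against 2.45 and 3.70, and the call of Des was lost without replica 1 of the induced C cells (adjusted p = 0.121). Myod1 and Myog, the factors that set the muscle fate, had at most 1 count in any of the 4 libraries.

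Matrix genes went both ways. Of 27 tested, 7 (25.9%) were higher in P cells, 5 (18.5%) were higher in induced C cells, 5 were within 2-fold and 10 undetermined. Thbs1, thrombospondin 1, had 5483 and 3815 CPM in P cells against 299 and 335, from 884 and 886, a log2 ratio of 3.87 (SE 0.22). Dcn, decorin, had 7.14 and 22.1 against 137 and 93.3, from 32.8 and 35.8, with log2 ratios of −2.39 without P replica 1 and −4.02 without replica 2, and Postn, periostin, had 111 and 250.4 against 842 and 745. Col1a1, collagen I, had 23560 and 4882 CPM in the P replicas and 2423 and 3155 in the C replicas. The high value belongs to P replica 1. Without it the log2 ratio of Col1a1 fell from 2.35 to 0.79, and the adjusted p was 0.202 without replica 1 of the induced C cells and 0.140 without replica 2. For the list, 2 genes were higher in P cells without P replica 1 and 12 without replica 2, and the median P replica difference (1 minus 2) was 0.75 on the log2 scale.

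Among targets and brakes of growth factor signalling through ERK, 8 of 16 (50%) were higher in P cells, 1 was higher in induced C cells, 3 were within 2-fold and 4 undetermined. Etv4, an ETS factor, had 50.5 and 44.3 CPM in P cells, 1.46 and 1.15 in induced C cells and 112 and 105 in uninduced C cells, a log2 ratio of 5.17 (SE 0.23, adjusted p = 8.18e-05). P cells thus stood part of the way down from the uninduced C level, and induced C cells far below. Il1rl1, the interleukin 33 receptor, had 86.3 and 171 against 6.31 and 5.89, from 273 and 283, and Etv5 had 17.0 and 20.3 against 3.08 and 3.90, from 27.7 and 28.5. Dusp6, a phosphatase that acts on ERK, went the other way, with 29.8 and 21.0 against 97.0 and 82.6.

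In the IGF system, 5 of 10 genes tested (50%) were higher in induced C cells and 2 (20%) in P cells. Igf2 (NCBI gene 16002), the growth factor, had 3.89 and 2.75 CPM in P cells, 289.8 and 302 in induced C cells and 1.71 and 1.82 in uninduced C cells, a log2 ratio of −6.49 (SE 0.23, adjusted p = 5.46e-05). Igfbp4, a binding protein, had 39.8 and 13.0 CPM against 1231 and 1402, and both P replicas were below the uninduced C cells, 74.9 and 73.4. Its log2 ratio was −6.67 without P replica 1 and −5.06 without replica 2. Igfbp5, another binding protein, had 81.8 and 51.5 in P cells, 8.33 and 9.12 in induced C cells and 0.159 and 0.0443 in uninduced C cells. Members of the same family were thus far below and far above the induced level.

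Genes of DNA replication and mitosis were mostly not separated. Of 31 tested, 6 (19.4%) were higher in P cells, 1 was higher in induced C cells, 11 were within 2-fold and 13 undetermined. Without P replica 2 the counts were 8 and 4. The 6 were genes of entry into and start of S phase. Ccnd1, cyclin D1, had 720.4 and 484 CPM in P cells, 80.9 and 84.8 in induced C cells and 769 and 700.3 in uninduced C cells, and Ccne1, cyclin E1, had 66.7 and 77.6 against 22.4 and 19.3. Mcm3, Mcm2, Rrm2 and Cdc6 had log2 ratios of 1.49, 1.48, 1.44 and 1.19. Top2a, topoisomerase II, was higher in induced C cells with 975 and 934 against 278 and 377, from 471 and 468. Mki67, the Ki-67 gene, had a log2 ratio of 0.35 and was not called.

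The TALE class to which Pknox1 belongs was split. Of 11 tested, 4 were higher in induced C cells and 2 in P cells. Meis2 had 88.0 and 105 CPM in P cells, 269 and 254 in induced C cells and 90.9 and 93.6 in uninduced C cells, a log2 ratio of −1.44. Meis1 had 15.2 and 40.4 against 108 and 81.5. Its log2 ratio was −1.24 without P replica 1 and −2.65 without replica 2, and its adjusted p was 0.128 without replica 1 of the induced C cells. Meis3 was higher in P cells, with 30.1 and 22.8 against 11.8 and 9.64, and so was Tgif2 (1.47). Of 17 clock genes, 4 were higher on each side. Per2 had 6.44 and 5.81 CPM in P cells against 71.3 and 77.5, from 4.58 and 5.14, while Nr1d1 had 18.7 and 15.1 against 4.06 and 3.50.

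**Figure D4:**
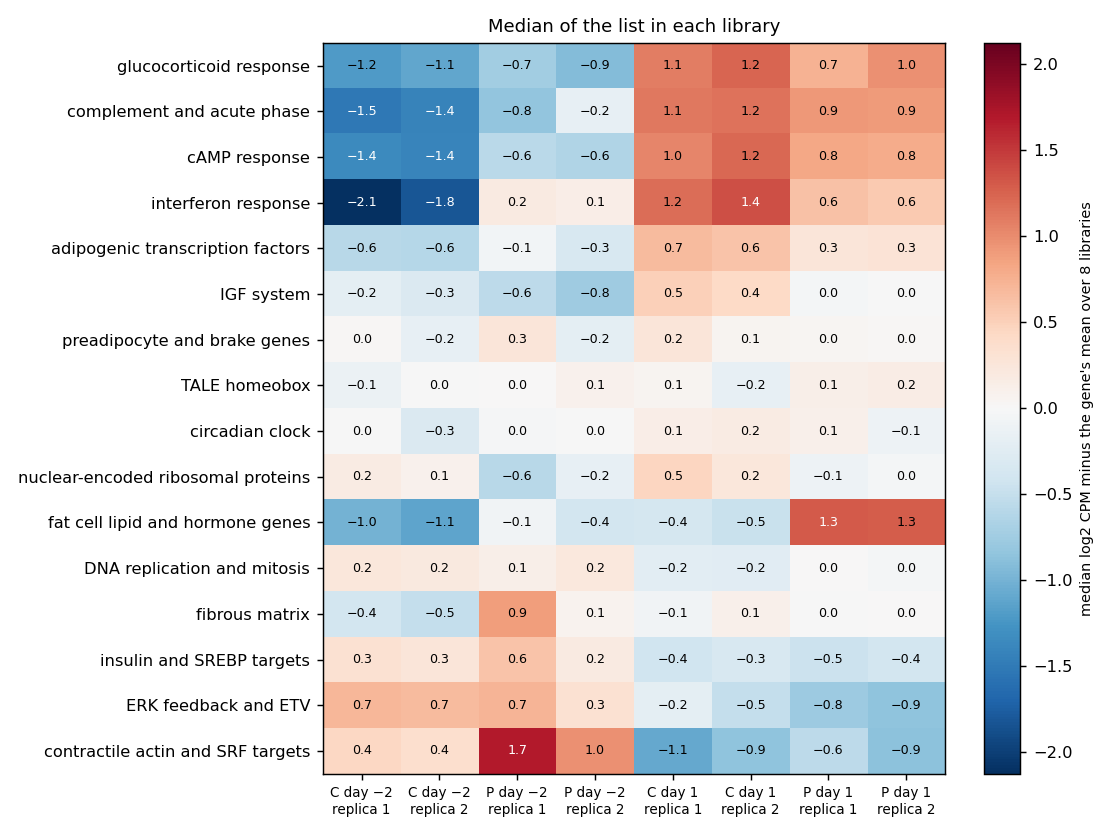
Each cell gives the median over the genes of a list (rows) in a library (columns) of log2 CPM minus the gene's own mean over the 8 libraries, blue below and red above that mean. The interferon response in P cells at day −2 stands at 0.2 and 0.1, between the uninduced and induced C libraries, while the contractile genes stand at 1.7 and 1.0, above all other libraries.

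Seen from the genes that induction moved in C cells, the same comparison gives the share that uninduced P cells had reached. This count shares the induced C libraries with the rule that picks the genes, so it is a description. Of 1432 genes called higher by induction, 809 (56.5%) were still higher in induced C cells than in P cells, 130 (9.08%) were within 2-fold, 17 (1.19%) were higher in P cells and 476 (33.2%) were undetermined. Of 1291 genes called lower by induction, 796 (61.7%) were still higher in P cells, 51 (3.95%) were within 2-fold, 6 (0.465%) were lower in P cells than in induced C cells and 438 (33.9%) were undetermined. Genes within 2-fold that knockdown alone had also moved past the call rule, in the direction of induction, numbered 100, of which 79 were higher and 21 lower.

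Sorcs1, a sorting receptor, was foremost among those 100. It had 34.4 and 34.9 CPM in P cells, 27.7 and 32.3 in induced C cells and 1.71 and 1.46 in uninduced C cells, while induced P cells had 87.2 and 94.6. Tnn, tenascin N, had 17.6 and 18.1 against 17.1 and 16.2, from 1.91 and 1.64. Fst, the activin antagonist follistatin, had 87.7 and 66.9 against 51.7 and 59.1, from 9.01 and 11.2. Notch3 had 24.2 and 11.7 against 13.3 and 21.9, from 1.71 and 2.26. The replicas of Notch3 overlapped. Both P replicas of Sorcs1, Tnn and Fst lay above those of induced C cells and both of Usp18 below, so that within 2-fold does not mean equal. Without P replica 1 the log2 ratio of Notch3 was −0.60, and without replica 2 it was 0.45. On the lower side, Itga3, an integrin, had 12.1 and 10.1 CPM against 11.5 and 10.3, from 71.9 and 63.9. Eml5 had 5.22 and 8.67 against 6.79 and 6.65, from 47.9 and 45.8, Gdpd5 had 2.45 and 1.93 against 2.21 and 2.87, from 13.6 and 14.4, and Hspa4l, a heat shock protein, had 11.5 and 22.7 against 19.3 and 17.2, from 61.0 and 64.7.

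P cells had gone beyond the induced level in 23 genes. Igfbp5 has been given. Epha3, an ephrin receptor, had 2.88 and 6.35 CPM in P cells, 0.197 and 0.0796 in induced C cells and no count in uninduced C cells. Its rise with induction in C cells rests on 5 and 2 counts (log2 ratio 4.77, SE 1.59, adjusted p = 0.0777), near the floor of 3 counts. Islr had 13.7 and 10.2 against 2.57 and 2.19, from 0.279 and 0.354, Ppfia2 had 6.60 and 8.35 against 3.47 and 3.26, and Rgcc, a cell cycle regulator, had 4.26 and 4.35 against 1.97 and 1.47. Col15a1 had 16.1 and 8.10 against 5.6 and 6.13, from 0.797 and 0.709. Several of these lie close to the thresholds. The log2 ratio of Col15a1, 1.04, was 0.45 without P replica 1, and its adjusted p was between 0.105 and 0.243 when other libraries were left out, apart from P replica 2. Without replica 2 of the induced C cells, that of Ppfia2 was 0.106 and that of Rgcc 0.101, and without P replica 2 the log2 ratio of Ppfia2 was 0.96. On the lower side, Sorcs2 had 8.52 and 4.92 CPM in P cells, 16 and 20.5 in induced C cells and 60.6 and 53.4 in uninduced C cells. Itgb7, an integrin, had 3.09 and 1.43 against 9.75 and 9.44, from 22.2 and 19.7, and Xpnpep2, a peptidase, had 2.13 and 2.35 against 4.93 and 6.01, from 19.1 and 15.9.

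For 75 genes knockdown and induction were called in opposite directions, 22 of them raised by induction and 53 lowered by it. Over all genes tested, knockdown had raised 644 (4.83%) and lowered 287 (2.15%), and induction had raised 1432 (10.7%) and lowered 1291 (9.68%). Both contrasts share the uninduced C libraries, so the 75 are a description. Whether they differ from the overlap that these shares alone would give was not tested. Tagln, Myl9, Gpr176 and Col8a1 were raised by knockdown and lowered by induction. Sema5a, a semaphorin, had 4.10 and 4.49 CPM in P cells, 27.3 and 31.4 in uninduced C cells and 124 and 128 in induced C cells, a direct log2 ratio of −4.87 (SE 0.17, adjusted p = 5.46e-05). In P cells at day 1 it had 126 and 139, one value within and the other above the induced C replicas. Cd33, a sialic acid binding receptor, had 0.0533 and 0.107 against 6.63 and 7.56, from 0.837 and 1.15, and Wnt4 and the uncharacterized 2610528A11Rik followed the same course.

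The comparison can be set beside P cells at day 1 against C cells at day −2, which measures knockdown and hormones together and shares no library with it. There 1460 genes (10.9%) were higher and 1343 (10.1%) lower in P cells at day 1. Among the 1460, 604 (41.4%) were higher in induced C cells than in uninduced P cells, 104 (7.12%) were higher in uninduced P cells, 213 (14.6%) were within 2-fold and 539 (36.9%) were undetermined. Among the 1343, 634 (47.2%) were higher in uninduced P cells, 55 (4.1%) were higher in induced C cells, 184 (13.7%) were within 2-fold and 470 (35%) were undetermined. Over all genes tested, 9.5% were higher in induced C cells and 11.1% higher in uninduced P cells. The 104 were 64 to 138 and the 55 were 29 to 127 when a library was left out. The lowest of the 104, 64, came without replica 2 of the induced C cells, with 66 without replica 1 of either C condition. The 55 were 127 without P replica 2, 33 without replica 1 of the induced C cells, 34 without replica 2 of the uninduced C cells, and 29 without replica 1 of the latter or without replica 2 of P cells at day 1.

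**Figure D5:**
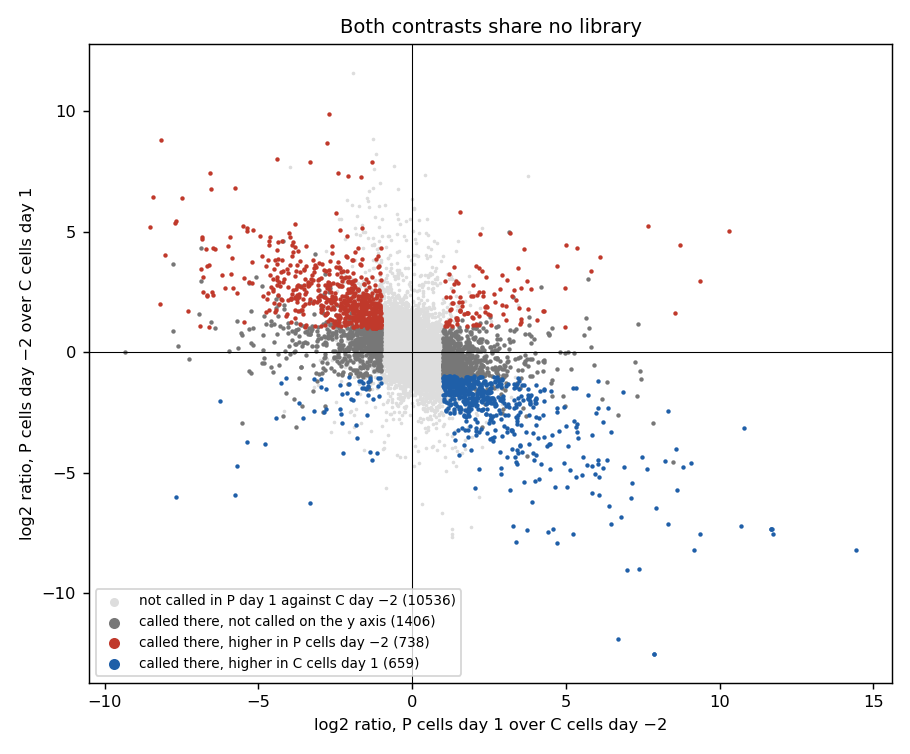
Each point is a gene, with the log2 ratio of P cells at day 1 over C cells at day −2 on the x axis and that of P cells at day −2 over C cells at day 1 on the y axis, which share no library. Among genes called on the x axis, red points (738) were called higher in uninduced P cells and blue points (659) higher in induced C cells, and most red points lie at the upper left (634) and most blue points at the lower right (604).

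Marker genes of fibroblasts were found in all libraries but were not level between the groups. Of 11 tested, Pdgfrb, Thy1, Col1a1 and Col1a2 were higher in P cells, and Pdgfra, Fn1, Ly6a, Cd34 and Dlk1 were higher in induced C cells. Thy1 had 941 and 684 CPM in P cells against 128 and 128, and Ly6a had 27.6 and 61.2 against 314 and 195. Of 10 macrophage and leukocyte markers 4 were tested, with a summed level of 10.7 and 12.2 CPM in P cells and 15.3 and 12.9 in induced C cells. Csf1r and Lyz2 were higher in P cells and Cd68 and Cd14 in induced C cells, and Ptprc had at most 6 counts in any of the 4 libraries. The endothelial markers summed to at most 1.18 CPM and the epithelial ones to at most 0.892, with none called. Of 6 bone and cartilage markers tested, Spp1, osteopontin, was higher in P cells with 851 and 1073 CPM against 41.2 and 34.2, from 1148 and 1284, and Sox9 and Comp were higher in induced C cells. Without replica 1 of the induced C cells, the calls of Cd68 (adjusted p = 0.233) and Sox9 (adjusted p = 0.204) were lost, and the log2 ratio of Cd14 went from −1.02 to −0.98. Without P replica 2 the log2 ratios of Cd14 and Sox9 were −0.84 and −0.65, and without P replica 1 that of Cd68 was −0.91, none past the ratio threshold. Ribosomal protein genes had 6 of 30 (20%) higher in induced C cells, none in P cells, and a median log2 ratio of −0.69. Without P replica 1, 1 was called, and without P replica 2, 14 were. Of 9 histone genes 1 was called on each side, H1f4 in P cells and H2bc4 in induced C cells. The log2 ratio of H1f4 fell from 1.65 to 0.80 without P replica 1. The part of these differences in the results above was not tested.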

How the data were processed

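Members of the comparison and all gene lists were chosen with earlier results of these data known. RNA-seq (Ion Torrent) was performed by the authors on 4 conditions with 2 biological replicas each. Artifacts were removed with the FASTX-Toolkit, reads were aligned to mm9 with TopHat2 2.0.9 and counted per NCBI gene against refGene with GenomicFeatures, GenomicRanges and GenomicAlignments, and the authors deposited these whole-number counts without normalization. The handling of strand and of reads shared between genes is not given in the sources used here, so near-identical genes are uncertain. Symbols were taken from a RefSeq table (GRCm38.p6, names only, no coordinates), and 84 of 24013 genes had none.

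The model was edgeR 4.0.16 in R 4.3.3 (filterByExpr, TMM, quasi-likelihood fit of all 8 libraries with 1 mean per condition, two-sided, Benjamini-Hochberg adjustment). The standard error was the log2 ratio divided by the square root of F, and the 95% interval used the t quantile at the model's total degrees of freedom. CPM used TMM-scaled sizes. Fitted ratios of genes with few counts depend on the prior count.

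Genes were named by rule: the 10 on each side whose interval lay farthest from 0 (mean of at least 50 counts, no overlap of replicas), 6 raised and 4 lowered genes ranked by the lesser of their changes from uninduced C cells, among genes reached and again among genes exceeded, the 4 per direction with the largest ratio among opposite genes, the 4 called members with the largest ratio of each list, and the genes the study names. Other list members were named after their values were seen. Some members that the rule names are not reported here. The fit was tested on simulated counts. Alternatives were DESeq2 1.42.0, its size factors, library totals, no filter, at least 10 counts in every library of both groups, a fit of 4 libraries, a replicate block, leaving out each library, a ratio threshold of none and an adjusted p under 0.05.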

Additional observations from a re-analysis of the deposited data

How the results depend on the processing

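The 2744 called genes became 1595 (889 higher in P cells, 706 higher in C cells) when only the 4 libraries of the comparison were fitted, and 4786 (2529 and 2257) with no ratio threshold, and the 4610 genes within 2-fold became 2417 in the fit of 4 libraries. That fit also left 4 adipogenic factors and 11 interferon genes higher in C cells, and requiring 10 counts in each library of both groups left 3 fat cell genes higher in P cells. With no ratio threshold, the genes of P cells at day 1 against C cells at day −2 that were called in both comparisons went from 1397 to 2760, as 1180, 197, 1236 and 147 in place of 604, 104, 634 and 55. The fit of 4 libraries could not be made for that pair of comparisons, because it leaves out the libraries of the second. Leaving out each library in turn gave 1833 to 4825 called genes, 898 to 2144 higher in P cells, 935 to 2681 higher in C cells and 2990 to 6888 within 2-fold, the lowest of these without replica 2 of the induced C cells. It gave 970 to 1654 for the 1397, 426 to 708 for the 604, 64 to 138 for the 104, 449 to 688 for the 634 and 29 to 127 for the 55. For the lists called higher in C cells it gave 11 to 16 cAMP genes, 16 to 18 glucocorticoid genes, 6 to 10 adipogenic factors, 13 to 17 interferon genes and 8 to 10 complement genes, and for those higher in P cells 8 to 10 insulin and SREBP genes, 5 to 6 fat cell genes, 16 to 19 contractile genes and 7 to 8 ERK genes. Pknox1 lay between −1.13 and −1.04. Of the values of named genes, 57 of 936 lost their call when a library was left out and 33 of 1146 under the other settings. No called gene changed sign, whereas genes that were not called, such as Cebpd, Notch3 and Hspa4l, lay on either side of 0. DESeq2 called 2856 genes (1540 and 1316), and 2688 of these were among the 2744. With a Wald standard error, added after the data were seen, 4613 genes were within 2-fold. The causes of these changes were not tested, except that the fits of fewer libraries hold fewer samples.

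The labels share replicate numbers but do not say that a number marks a shared culture. Across all genes the deviations of same-numbered libraries of uninduced P cells and induced C cells had a correlation of −0.355, and −0.752 over the abundant genes, so the numbers were not used to pair samples. With the replicate block, 2458 genes were called (1290 and 1168), and with the day 1 numbers crossed in the block, added after the data were seen, 2820 (1451 and 1369).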
